A study of Saccharomyces cerevisiae with 48 samples.

Results

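The outer 20 kb of the 32 ends of the 16 nuclear chromosomes of budding yeast, Saccharomyces cerevisiae, were examined for RNA polymerase II and for under-wound DNA. Members were the peaks whose midpoint lay within 20 kb of an end. They numbered 3649 of the 83171 nuclear peaks in 24 lists, 87 of them for Rpb1 and 3562 for bTMP. Together the ends made up 640 kb, or 5.31% of the nuclear genome.

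Rpb1, the subunit that holds the catalytic centre of RNA polymerase II, was immunoprecipitated with antibody 8WG16. bTMP is a biotinylated psoralen that enters under-wound DNA more readily, and DNA carrying it was captured on streptavidin. All 4 Rpb1 lists came from S-phase cells, released from alpha-factor and harvested at 45 to 50 min and 23 °C, of wild type, sen1, rrm3 and sen1rrm3. The 20 bTMP lists came from these 4 strains too, in S phase as above, in log phase (2.5 h in YPD) and at 32 °C (1.5 h in YPD at 25 °C and then 1 h at 32 °C). Log phase also had top1, sen1top1, rrm3top1 and sen1rrm3top1, and 32 °C had the corresponding strains with top2-1, a temperature-sensitive allele of topoisomerase II. All cultures were first grown in YPG. The labels do not say how the sen1, rrm3 and top1 mutations were made. Sen1 is a helicase needed to stop RNA polymerase II after short transcripts, Rrm3 is a helicase that travels with replication forks and clears protein blocks, and Top1 and Top2 are topoisomerases that remove supercoils. There was 1 library for each group and no replicate, and different strain backgrounds served as the repeats of a contrast.

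Yeast chromosomes end in short telomeric repeats, next to which lie the X element and, at some ends, Y' elements, which carry the YRF1 helicase genes. Sir proteins spread inward from the telomere over these elements and from silencers at the silent mating cassettes, and keep nearby genes at low transcription. Subtelomeres also hold gene families with near-identical copies at many ends, such as COS, which encode membrane proteins, and PAU, which encode cell wall mannoproteins. The ends are defined by position, and the gene families examined fell within them to unlike degrees. Of the family members in the gene table, 8 of 8 YRF1 genes, 11 of 12 COS genes and 19 of 24 PAU genes lay within 20 kb of an end. Among other families, 10 of 13 maltose and isomaltose genes did so, but only 1 of 5 flocculin, 3 of 16 hexose transporter and 2 of 14 iron uptake genes. Reads from near-identical copies can be placed at any of them, so values over YRF1, COS, PAU, Ty and mating cassette copies are uncertain for a single copy.

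Across the lists, the smallest gap between neighbouring peaks was 156 to 166 bp in 14 of the 20 bTMP lists, called closely spaced here, and 591 to 631 bp in the other 6, called widely spaced. Those 6 were the 4 S-phase lists, sen1 at 32 °C and sen1rrm3 at 32 °C. They covered 17.5% to 25.9% of the genome, against 7.0% to 11.7% for the other 14. The S-phase wild-type bTMP list was the shortest, with 2678 peaks, and its pattern at the ends stood apart from the other 19. Cover is therefore given as relative cover, the percent of a stretch that lies under peaks over the percent of all nuclear base pairs that does so in the same list, so that 1 is the genome's level. Cover given in percent or percentage points is not divided in this way. Read depth is unknown, and the part of spacing, depth and peak calling in the values below was not tested.

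Rpb1 peaks were scarce at chromosome ends in all 4 strains. In wild type, 23 of 2037 Rpb1 peaks were end peaks (1.13%, exact 95% binomial interval 0.717% to 1.69%, counting error only). sen1 had 29 of 2136 (1.36%, 0.911% to 1.94%), rrm3 15 of 2039 (0.736%, 0.412% to 1.21%) and sen1rrm3 20 of 2016 (0.992%, 0.607% to 1.53%). The intervals of the 4 strains overlapped. Relative cover of the ends was 0.153 in wild type, 0.190 in sen1, 0.144 in rrm3 and 0.161 in sen1rrm3, which lay below the genome's level in every list. The median end peak was narrower than the other peaks of its list in wild type (429 against 817.5 bp) and sen1 (403 against 886 bp). In rrm3 (786 against 809 bp) and sen1rrm3 (870 against 894.5 bp) the widths were close. By the authors' score, used here to rank peaks within a list, the median end peak stood at percentile 19.5 to 48.1 of its list.

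Rpb1 cover was lowest next to the end and did not rise evenly from there. In the outermost 2 kb, 2 of the 4 lists had no cover at all, and the highest value, in sen1, was 0.0218. Median relative cover over the 4 lists was 0.223 at 8 to 10 kb, then 0.0597 at 10 to 12 kb and 0.0256 at 12 to 14 kb. It was 0.288 at 14 to 16 kb, 0.320 at 16 to 18 kb and 0.346 at 18 to 20 kb. Across the 20 kb boundary it was 0.309 at 20 to 22 kb, with 21 peaks just inside (18 to 20 kb) and 18 just outside. Beyond 20 kb it went up and down, with 0.342 at 26 to 28 kb, 0.939 at 32 to 34 kb and 0.616 at 36 to 38 kb.

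bTMP was different. Its peaks were found at almost every end. Each bTMP list had 126 to 234 end peaks, with a median of 180, which was 3.33% to 5.98% of its peaks, and had a peak at 30 to 32 of the 32 ends. Over the 20 lists, relative cover was 1.65 at the median in the outermost 2 kb (0.389 to 3.22) and above 1 in 14 lists. That step differed by spacing, with a median of 0.95 in the 6 widely spaced lists (above 1 in 2) and 2.11 in the 14 closely spaced (above 1 in 12). Over all 20 lists the median was 0.383 at 2 to 4 kb (0.282 to 2.05) and 0.736 at 4 to 6 kb (0.334 to 1.49). At 6 to 8 kb it was 1.89 (1.02 to 2.59), above the genome's level in 20 of 20 lists, with 1.36 in widely and 2.08 in closely spaced lists. From 8 kb to 20 kb the medians lay between 0.590 and 0.980.

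The stretch at 6 to 8 kb exceeded both of its neighbouring steps in 19 of 20 lists, and the outermost step exceeded the next in 18 of 20. The exception at 6 to 8 kb was S-phase wild type, which had its highest value at 2 to 4 kb (2.05). Its values were 0.909 at 0 to 2 kb, 1.49 at 4 to 6 kb and 1.21 at 6 to 8 kb. In 7 lists the outermost step was the highest of the 10, and in 12 the step at 6 to 8 kb. Log sen1 (0.389) and log top1 (0.673) had the lowest values in the outermost step, against 2.19 in log wild type and 3.22, the highest, in log rrm3top1. Just inside the 20 kb boundary the median was 0.743, with 311 peaks over the 20 lists, and just outside it was 0.844, with 334 peaks.

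**Figure D1:**
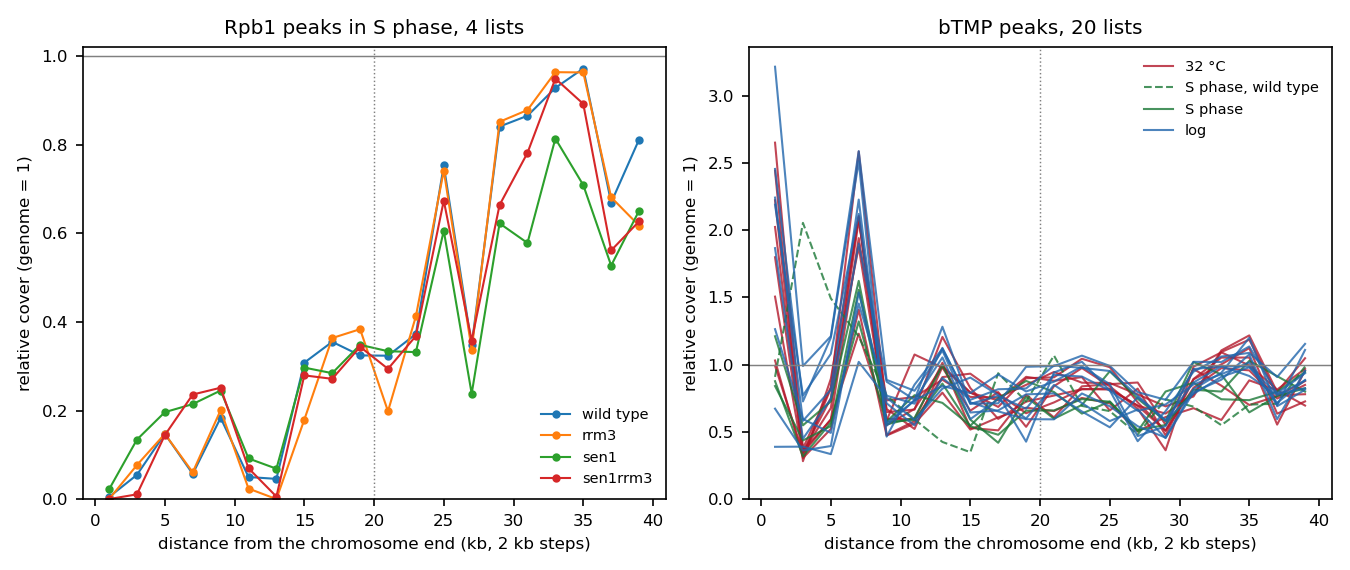
Relative cover (share under peaks divided by the list's genome share, genome = 1) against distance from the chromosome end in 2 kb steps, with 1 line a list, for 4 Rpb1 lists on the left and 20 bTMP lists on the right. The Rpb1 lines start near 0 and stay under 0.4 up to 20 kb (dotted line), while all 20 bTMP lines are above 1 at 6 to 8 kb and 14 are at 0 to 2 kb. The dashed S-phase wild-type line is highest at 2 to 4 kb.

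Over the whole 20 kb, relative bTMP cover of the ends ran from 0.640 in log sen1 to 1.29 in log rrm3top1, with a median of 0.939, and was above 1 in 8 of 20 lists. All 8 were closely spaced lists, and the 6 widely spaced lists ran from 0.690 to 0.946. The mean log2 relative cover was -0.15 ± 0.28 (SD, 20 lists), below 0 in 12 lists (permutation test by sign flips, two-sided, adjusted p = 0.0275 over 6 distance classes). All 6 distance classes passed this test, which is 100% of them. The test takes the 20 lists as independent, though they share strains and conditions and are not replicates of a group. The 6 classes tile 1 genome, so their values are tied to each other. The next 2 classes inward were lower, at -0.31 ± 0.12 for 20 to 40 kb and -0.27 ± 0.078 for 40 to 60 kb, and were below 0 in 20 of 20 lists. The value for the ends did not hold in the 14 closely spaced lists alone, where the mean was -0.05 (permutation test, adjusted p = 0.509). For the outer 10 kb the mean was 0.05 (permutation test, adjusted p = 0.568). Over all 10 alternatives the adjusted p ran from 6e-05 to 0.568.

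bTMP cover at 6 to 8 kb was high at the ends that carry an annotated YRF1 gene. Genes of that name were present at 7 of the 32 ends (IV right, V right, VII right, XII right, XIV left, XV right and XVI left). At these 7 ends median relative bTMP cover was 1.84 at 0 to 2 kb, 0 at 2 to 4 kb, 0.0714 at 4 to 6 kb and 3.43 at 6 to 8 kb. At the other 25 ends the medians were 1.58, 0.491, 0.931 and 1.37 in the same steps. The high, low, high order was thus present in both kinds of end, and the fall and rise were larger at the ends with YRF1. No test was made of this difference. The split is by gene name, and some of the 25 ends carry Y' reading frames under other names. Among them, IX left, with YIL177C, and X left, with YJL225C, had median cover at 6 to 8 kb of 43.0% and 40.8% of base pairs, above the 35.5% of XII right and the 38.0% of VII right, which carry YRF1. At the ends without YRF1, 18 of 25 had cover in the outermost 2 kb in at least 10 lists and 17 of 25 did at 6 to 8 kb, compared with 7 of 7 for both at the ends with YRF1.

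All 8 YRF1 genes point outward, with their 5' end facing the chromosome interior, so they can be used as anchors. bTMP peaks lay on both flanks of YRF1 and, in the median list, left most of the gene body bare. In the 250 bp directly downstream of the gene, on the telomere side, the median over 20 lists was 93.0% of base pairs covered. The exceptions were log sen1, at 3.05%, and log top1, at 4.67%. The remaining 18 lists had 78.1% to 95.8%. For YRF1-1 and YRF1-5 this stretch is only 0.174 and 0.198 kb long. The end of their chromosome was set at the last base under a bTMP peak, so their cover is partly built in. With the body cut into 10 equal parts from its start, the median list had 0% in parts 1 to 7, 0.48% in part 8 and 22.8% in part 10. Part 8 differed between lists, from 0% to 56.6%. It was highest in log rrm3top1 (56.6%), log rrm3 (47.9%), S-phase sen1 (47.5%) and sen1 at 32 °C (46.3%), where all 8 genes had some cover there. Between 250 and 500 bp upstream of the gene the median was 52.5%, with a range of 16.7% to 71.7%.

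The S-phase wild-type list again differed. It had 50.0% to 74.4% of parts 3 to 6 of the YRF1 body covered, where the other 19 lists had at most 28.0%. Upstream, by single gene, YRF1-1, YRF1-6 and YRF1-7 had a peak within 1 kb of the gene start in 20 of 20 lists, and YRF1-3, YRF1-5 and YRF1-8 in 19. YRF1-2 had one in 15 lists. YRF1-4, the inner of the pair of Y' elements at XII right, had one in 2. Rpb1 peaks covered no base pair of any YRF1 gene body in any of the 4 lists.

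**Figure D2:**
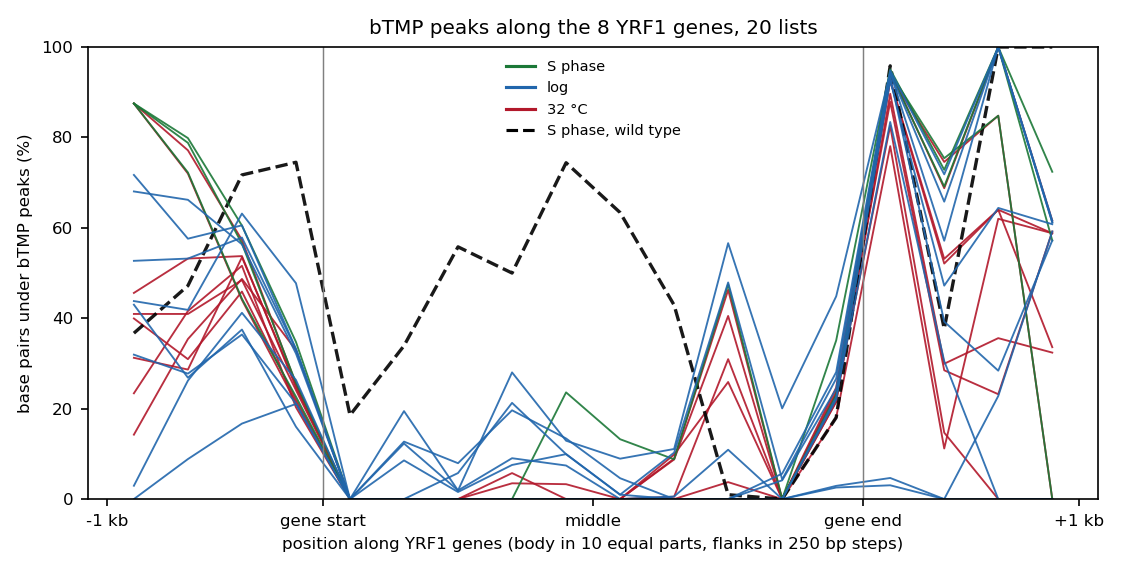
Base pairs under bTMP peaks in percent, averaged over the 8 YRF1 genes in gene orientation, with the body in 10 equal parts and the flanks in 250 bp steps, 1 line for each of 20 lists. The distal downstream steps hold 1 gene only, because the chromosome ends there. Most lines are near 0 in much of the body and high just past the gene end, and some rise in part 8 of the body. The dashed S-phase wild-type line is high in the middle of the body.

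Merging the end peaks of the 20 bTMP lists gave 297 sites, of which 30 had a peak in all 20 lists, 104 in at least 15 and 47 in 1. A merged site can chain peaks that only partly overlap, so a peak in all 20 lists need not mean a shared base. For example, a site on chromosome III from 11806 to 14296 had a peak in 20 lists but at most 16 at any base. The sites named below each had a base shared by all 20 lists. Such sites were not counted over the rest of the genome. Of the 104 frequent sites, 24 had their most shared stretch within 2 kb of the end and 21 at 6 to 8 kb, and 54 had it outside annotated genes. Among the sites in all 20 lists, one on chromosome IV ran from 1522541 to 1526544, with its most shared stretch 565 bp from YRF1-1. One on chromosome XVI ran from 6006 to 9623, with its most shared stretch 231 bp from YRF1-7. On chromosome II, the sites at 105 to 407 and 1528 to 2351 lay over the reading frame YBL113C, and another at 5358 to 7377 had its most shared stretch 849 bp from the mannoprotein gene PAU9. Chromosome V carried such sites at 78 to 1928 and 6034 to 6904 on its left end. Chromosome VI carried one from 866 to 5726 and one from 8162 to 9309, the latter with its most shared stretch 692 bp from COS4. Further inward, one on chromosome I ran from 17381 to 20674, and one on chromosome VI from 254586 to 255648 lay over HXK1, which encodes a hexokinase. Coordinates are those of the deposited peaks, and no source used here names the genome build.

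The 32 ends were not alike. By bTMP, 28 ends had a peak in all 20 lists. The highest median relative cover was at VIII right (1.72, range 0.879 to 2.89), followed by XVI right (1.35), VI left (1.32) and XVI left (1.13). The lowest was at XIV right, where the median was 0 and 7 of 20 lists had a peak, 1 in each. Its highest value was 0.573, in S-phase wild type. VII left had a median of 0.274, I right 0.283 and IV left 0.528. The left end of III, which carries the silent mating cassette HML, had a median of 0.913 but reached 2.75 in log sen1 and 2.51 in log sen1rrm3top1.

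By Rpb1, 14 ends had no cover in any list and 8 had cover in all 4. VIII right was the highest, with 20.6% of base pairs covered in wild type, 33.6% in sen1, 24.6% in rrm3 and 31.1% in sen1rrm3. VI right followed, at 16.3%, 17.8%, 16.9% and 20.4% in the same order. V left had 11.8%, 15.9%, 11.9% and 13.4%. XIII left had 10.8%, 16.9%, 7.05% and 13.6%. Both sen1 strains lay above both others at 7 of the 18 ends with any Rpb1 cover, these 4 and XIII right, II left and VII right, and below both at 2, X right and III left. This order is of percent cover, not relative cover. The lists covered 18.9% of the genome in wild type, 20.2% in sen1, 18.9% in rrm3 and 19.4% in sen1rrm3. How often the order occurs in the rest of the genome was not counted, so whether it is particular to the ends is not known. VIII right was the highest end in both assays, while VI right had a bTMP median of only 0.655. At VIII right, 3495 bp of the wild-type Rpb1 cover lay over YHR214C-B, a Ty retrotransposon reading frame with copies elsewhere. A bTMP site found in all 20 lists, from 543671 to 549443, lay over it too. Reads of Ty copies can be placed at any of them, so the rank of this end is uncertain.

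**Figure D3:**
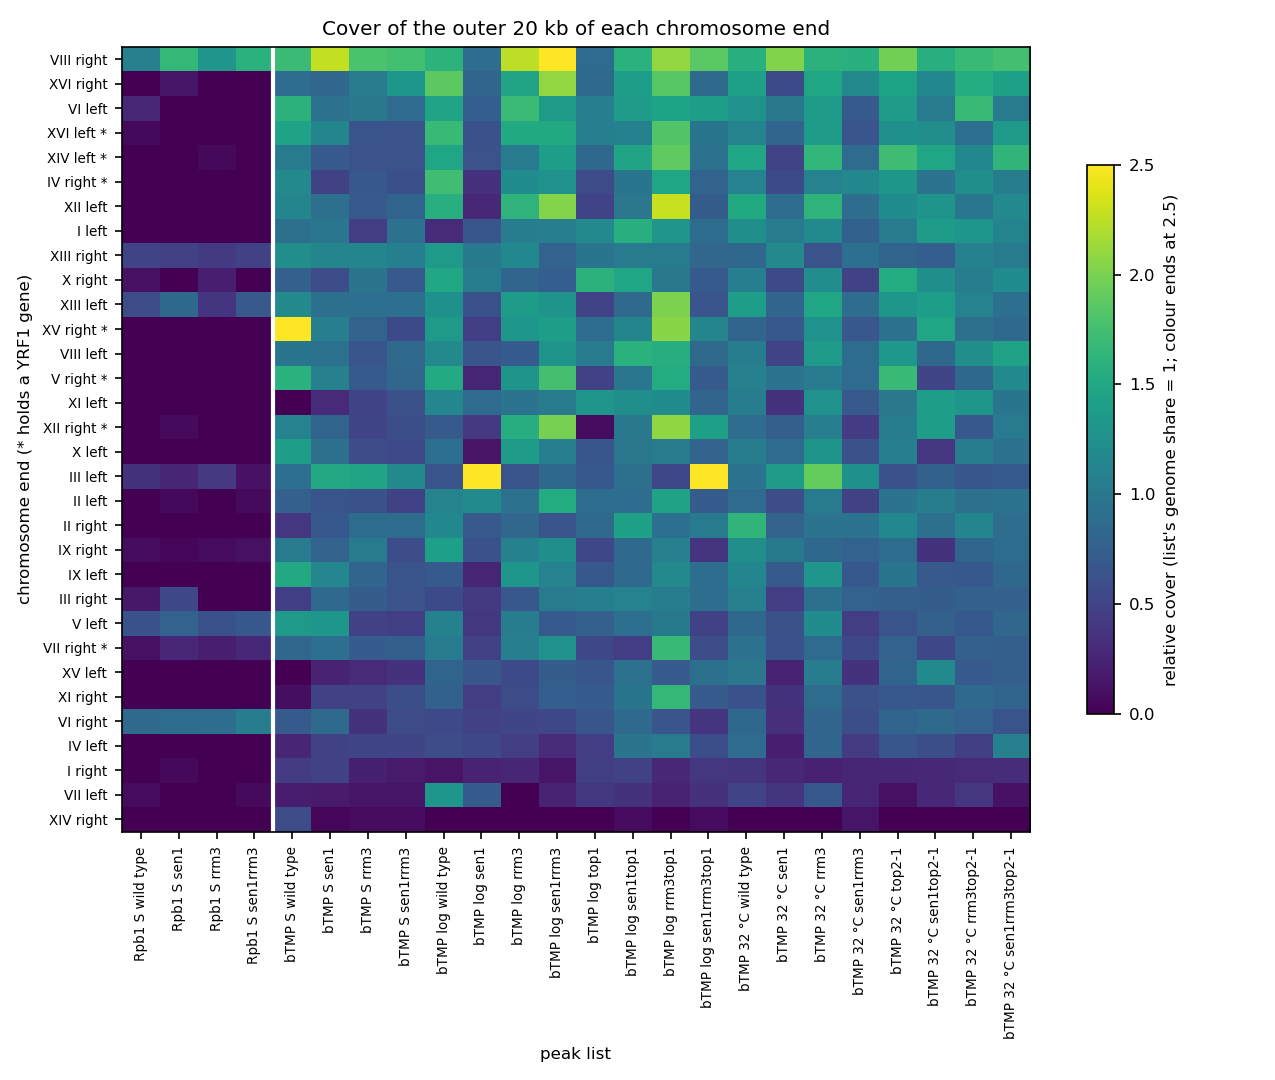
Relative cover of the outer 20 kb of each chromosome end (rows, ordered by median bTMP cover, a star marks the 7 ends with YRF1) in each of 24 lists (columns, the 4 Rpb1 lists left of the white line). Colour stops at 2.5. Dark Rpb1 columns with a few lighter ends contrast with bTMP columns that are filled at most ends, and XIV right at the bottom is almost empty.

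Of 6002 protein-coding genes, 241 had their midpoint within 20 kb of an end. Few of these had an Rpb1 peak. In wild type, Rpb1 peaks touched 17 of them (7.05%), against a background of 40.8% over all protein-coding genes. sen1 touched 20 (8.30%, against 42.7%), rrm3 12 (4.98%, against 41.1%) and sen1rrm3 18 (7.47%, against 40.7%). At least 50% of the body was covered for 7 in wild type (2.90%, against 21.9%), 11 in sen1 (4.56%, against 24%), 8 in rrm3 (3.32%, against 21.6%) and 9 in sen1rrm3 (3.73%, against 22.1%). Rpb1 touched 217 of the 241 genes in no list, while 50.5% of all genes were touched in none. The mean share of the gene body under Rpb1 peaks was 3.62% in wild type near ends and 23.8% elsewhere. Annotated gene bodies filled 49.4% of the ends and 74.2% of the rest of the genome.

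DLD3, a lactate dehydrogenase gene on V left, ERG13, encoding HMG-CoA synthase of sterol synthesis, and IRC7, encoding a cysteine-cleaving enzyme on VI right, were each 100% covered in wild type. IRC7 lay 5.17 kb from the end, whereas DLD3 and ERG13 lay 17.1 and 19.8 kb away. FET4, encoding a low-affinity iron transporter, was covered at 97.5% in wild type, 100% in sen1, 88.2% in rrm3 and 100% in sen1rrm3. VAC17, a vacuole inheritance gene on III left, had 88.4%, 61.9%, 98.3% and 36.2% in the same order, lower in both sen1 strains than in the others. RET2, encoding a coatomer subunit, had 60.8%, 47.3%, 66.1% and 78.2%.

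Lower in the order, COS6 had 36.7% in wild type, 74.2% in sen1, 68.6% in rrm3 and 71.6% in sen1rrm3. NRE1 had 39.5% in wild type and 0% in sen1, but 36.3% in rrm3 and 41.2% in sen1rrm3, so its absence in sen1 was not seen in the double mutant. ERO1, encoding a thiol oxidase of the endoplasmic reticulum, had 33.4%, 55.4%, 0% and 29.7%. YHR214C-B, a Ty retrotransposon reading frame on VIII right with copies elsewhere, had 64.9% to 73.0% over the 4 lists. Among the 10 pseudogenes near ends, AAD6, named after its values were seen, had 75.8% in wild type and 0% in the mutants.

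Gained genes were those with 0% Rpb1 cover in wild type and 50% or more in a mutant, and lost genes the opposite. Near ends, sen1 gained 2 of 241 genes (0.830%), against 1.88% of all genes, and lost 0, against 0.716%. The gained genes were COX14, encoding a mitochondrial assembly factor of cytochrome oxidase, and RDS1, encoding a zinc cluster transcription factor. COX14 had 0% in wild type and rrm3 and 100% in sen1 and sen1rrm3. RDS1 had 60.6% in sen1 and 0% in the other 3 lists. sen1rrm3 gained 1 gene, COX14, against 1.07%, and lost 0, against 0.716%. rrm3 gained and lost 0, against 0.133% and 0.217%. These shares lay near or below the background.

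Chosen after its values were seen, IMD2 on VIII right showed a change that the call does not count, because wild type already had some cover. IMD2 encodes IMP dehydrogenase of guanine nucleotide synthesis, and its transcription is known to be held down by early termination that involves Sen1. Rpb1 covered 19.3% of IMD2 in wild type, 21.2% in rrm3, and 100% in sen1 and in sen1rrm3. The Rpb1 site there ran from 554077 to 556518 on chromosome VIII. By bTMP, IMD2 with its 300 bp upstream was touched in all 20 lists. In S phase, 24.1% of it was covered in wild type, 100% in sen1, 100% in rrm3 and 46.2% in sen1rrm3, so bTMP did not divide the strains as Rpb1 did.

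**Figure D4:**
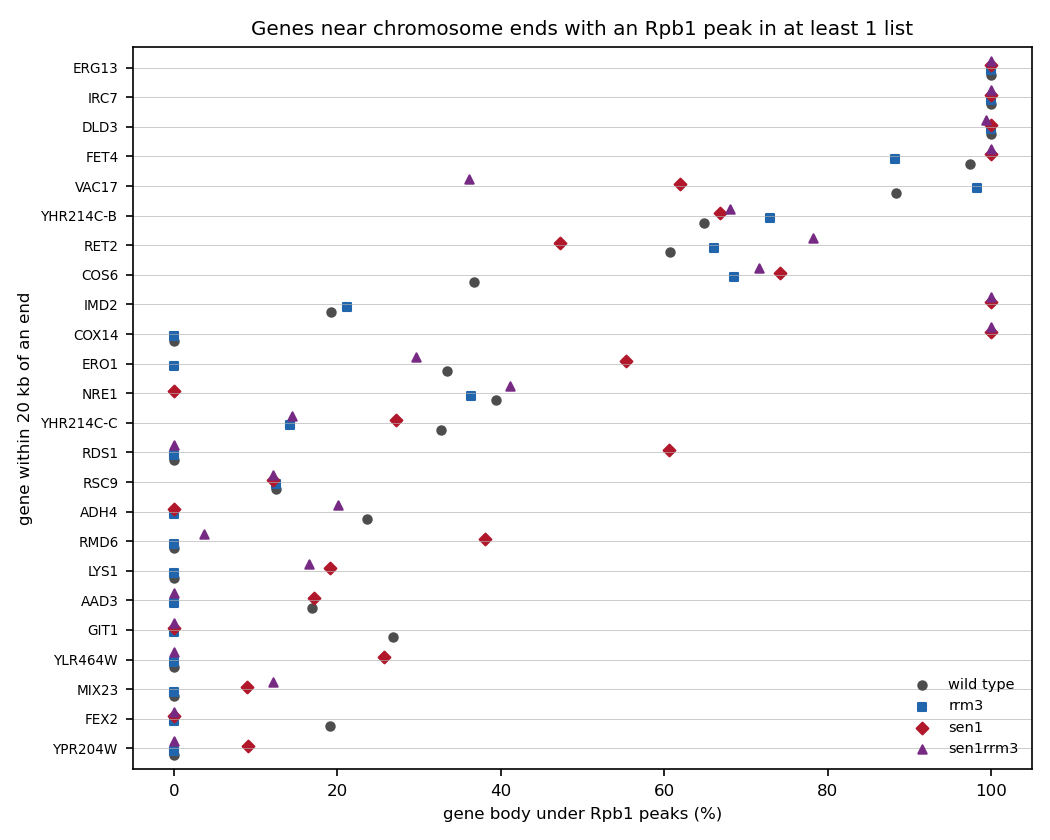
Share of the gene body under Rpb1 peaks in percent for the 24 protein-coding genes near ends with a peak in at least 1 of the 4 S-phase lists, 1 symbol a strain. Wild type and rrm3 lie apart from sen1 and sen1rrm3 at COX14 and IMD2, while ERG13, IRC7 and DLD3 are at or near 100% in all 4.

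Merged Rpb1 end peaks gave 35 sites, of which 10 were shared by all 4 lists and 17 were in 1 list. Of those 17, 5 were in wild type, 9 in sen1, 1 in rrm3 and 2 in sen1rrm3. Only 3 sites were found in both sen1 strains and in neither other strain, over MIX23, a mitochondrial protein gene, LYS1, a lysine synthesis gene, and RMD6, a gene needed in meiosis. These genes too were named after their values were seen. Their peaks were small, covering 8.97% of MIX23, 19.2% of LYS1 and 38.1% of RMD6 in sen1. In the reverse order, 1 site was found in wild type and rrm3 only. Such sites were not counted over the rest of the genome.

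bTMP cover of genes was measured over the body with 300 bp upstream. The mean share covered, over 20 lists, was 9.45% for genes near ends and 15.3% for genes elsewhere. Of the 241 genes, 12 were touched in all 20 lists (4.98%), against 12.5% of all genes, and 51 in none (21.2%), against 8.53%. The 12 included YRF1-3 and YRF1-7, the reading frames YBL113C, YIL177C and YEL077C in the outermost stretch, the hexokinase gene HXK1, the amino acid permease gene AGP3, the alcohol dehydrogenase gene ADH6, IMD2 and COX14.

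The 3 most covered genes were small reading frames near the 6 to 8 kb stretch or the end. YER188C-A, 7.08 kb from V right, had 72.2% ± 36.5 (SD, 20 lists), YOL166W-A, 0.662 kb from XV left, 64.3% ± 38.2, and YOR394C-A, 6.97 kb from XV right, 62.9% ± 32.2. All 3 ran from 0% to 100% across lists. The others of the 10 most covered lay further in, from 11.4 kb (ADH6) to 18.4 kb (GIT1) from an end. COX14 was the steadiest of the 10 most covered, at 44.1% ± 2.09, with a range of 41.1% to 46.2%, including the lists of the sen1 strains in which Rpb1 covered it fully. GIT1, encoding a glycerophosphoinositol permease on III right, had 44.2% ± 25.9. ADH6 had 38.9% ± 36.3, and YHR214C-B had 43.3% ± 29.1. YHR214C-C, which overlaps YHR214C-B, had 52.0% ± 20.4.

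By gene family, most subtelomeric members had no Rpb1 peak, as was the case for 217 of all 241 genes near ends. Of the 11 COS genes near ends, COS6 was the one with Rpb1 peaks, in all 4 lists. All 19 PAU genes near ends had 0% in every list, and so did the 5 PAU genes elsewhere. Rpb1 also covered 0% of the 10 maltose and isomaltose genes near ends, the 8 thiamine and pyridoxine genes, and the 3 hexose transporter genes HXT15, HXT16 and HXT17. The acid phosphatase genes PHO11 and PHO12, 2 in number, were at 0% as well. Members of the maltose, thiamine and acid phosphatase groups elsewhere in the genome, 3, 2 and 2 genes, were likewise at 0%. Of the 5 aryl-alcohol dehydrogenase genes, all near ends, AAD3 had 16.8% in wild type and 17.1% in sen1.

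By bTMP, mean cover was 10.8% for COS, 3.60% for PAU, 8.51% for YRF1 and 8.01% for the maltose group. The median YRF1 gene was touched in 18.5 of 20 lists, and the median PAU gene in 1. A longer gene is more readily touched, and gene length was not allowed for in these counts. The YRF1 genes are 4149 to 5728 bp long. The 3 hexose transporter genes near ends had 8.35%, against 30.5% for the 13 elsewhere. The genes for silencing and telomere proteins themselves lay outside the ends, all 17 of those in the gene table.

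The silent cassette genes HMLALPHA1 and HMLALPHA2 on III left had the highest family mean, at 35.2%, close to the 36.5% of the HMR genes, which lie further than 20 kb from an end of III. Rpb1 covered 0% of both pairs in all 4 lists. The cassette genes share sequence with the active MAT locus, so reads of one can be counted at the other.

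Cover was also compared between parts of genes. Set against the mean of the ends in the same list, Rpb1 cover of gene bodies was 1.48 at the median of 4 lists (1.07 in the rest of the genome, set against the mean of that rest), and cover of the 300 bp upstream of genes was 0.302 (0.530). Downstream of genes, Rpb1 cover was 1.24 within the ends, above 1 in 4 of 4 lists, and 1.41 in the rest. bTMP cover of the 300 bp upstream was 0.892 at the median of 20 lists within the ends and above 1 in 5 lists. In the rest of the genome it was 1.39 and above 1 in 20 of 20 lists. The 300 bp downstream of genes had 1.40 within the ends, above 1 in 19 lists, and 1.12 in the rest, above 1 in 17. Upstream stretches were thus above their surroundings in every list away from the ends and in few lists at the ends.

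In S phase, where both assays were made in the same 4 strains, 18.9% of the Rpb1-covered base pairs of the ends also lay under bTMP peaks in wild type. The share was 43.6% in sen1, 35.7% in rrm3 and 47.1% in sen1rrm3. bTMP peaks covered 16.5%, 21.6%, 16.5% and 17.3% of the ends in the same order. The wild-type bTMP list is the one that stands apart, and Rpb1 cover also differed between strains. The source of the low wild-type share was not tested.

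The 10 pairs of bTMP lists that differ in sen1 alone did not separate at the ends. Relative cover without and with sen1 was 0.946 and 0.835 in the wild-type background in S phase, and 0.708 and 0.701 in rrm3. In log phase it was 1.08 and 0.640 in the wild-type background, 1.01 and 1.13 in rrm3, 0.750 and 1.03 in top1, and 1.29 and 0.856 in rrm3top1. At 32 °C it was 1.03 and 0.690 in the wild-type background, 1.11 and 0.717 in rrm3, 1.01 and 0.915 in top2-1, and 0.932 and 0.952 in rrm3top2-1. It was lower with sen1 in 7 of 10 pairs, including both S-phase pairs, while log phase was split.

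The mean difference with sen1 was -0.23 ± 0.40 on the log2 scale (SD, 10 pairs; two-sided exact sign-flip test, p = 0.104, adjusted p = 0.457 over 6 distance classes). The 2 largest falls at 32 °C were pairs of a closely and a widely spaced list. In the 8 pairs of like spacing the mean was -0.13. None of the 6 classes passed with sen1 (0%). The smallest p that 10 pairs allow is 0.00195.

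For rrm3, relative cover without and with the mutation was 0.946 and 0.708 in S phase in the wild-type background and 0.835 and 0.701 in sen1. In log phase it was 1.08 and 1.01 in the wild-type background, 0.640 and 1.13 in sen1, 0.750 and 1.29 in top1, and 1.03 and 0.856 in sen1top1. At 32 °C the 4 pairs differed by less, with log2 differences of -0.11 to 0.11. It was higher with rrm3 in 5 pairs and lower in 5, with a mean log2 difference of 0.068 ± 0.42 (SD, 10 pairs; two-sided exact sign-flip test, p = 0.602, adjusted p = 0.902). None of the 6 classes passed (0%). The 2 largest rises started from log sen1 and log top1, the lists with little cover in the outermost step, and without either of those pairs the mean turned to -0.01.

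**Figure D5:**
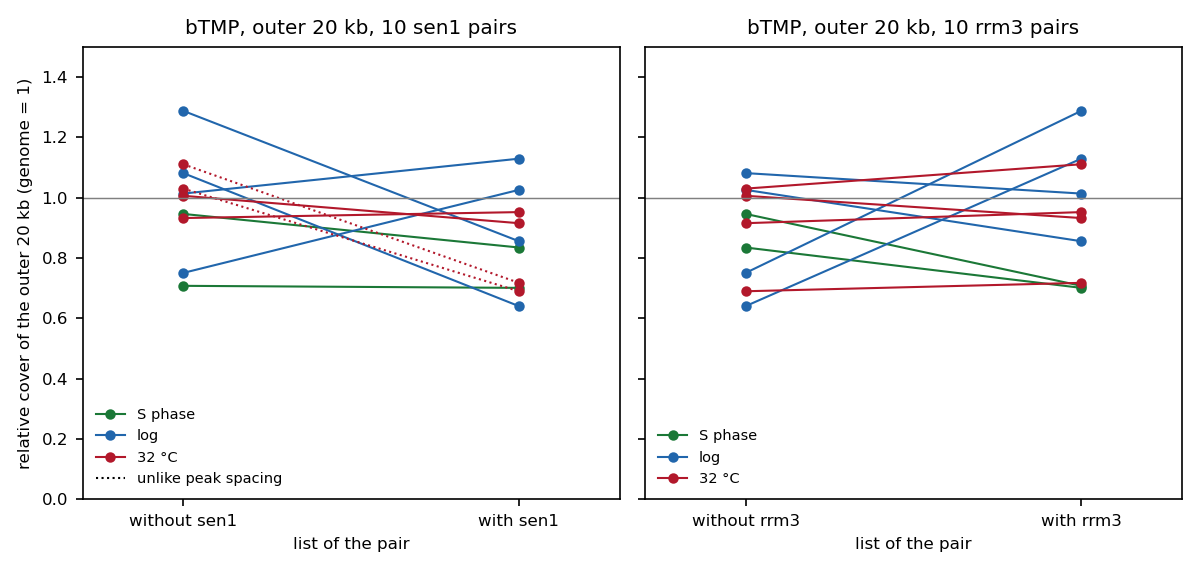
Relative bTMP cover of the outer 20 kb (genome = 1) in lists without and with sen1 (left) and rrm3 (right), 1 line for each of 10 pairs, coloured by growth condition, with dotted lines for pairs of unlike peak spacing. Lines cross in both panels. With sen1, 7 of 10 fall, and with rrm3, 5 rise and 5 fall.

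The other contrasts had 4 pairs each, which allow no exact p below 0.125, and are given as values. With top1 in log phase the mean log2 difference was 0.02 ± 0.58 (SD, 4 pairs), 2 higher and 2 lower. With top2-1 at 32 °C it was 0.13 ± 0.33, also 2 and 2, and the 2 rises (0.41 and 0.41) were the pairs of unlike spacing. S phase against log was -0.25 ± 0.47, lower in 3 of 4 strains, with unlike spacing in all 4 pairs. At 32 °C against log it was -0.12 ± 0.37, 2 higher and 2 lower.

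Single ends gave no call either. Of 586 windows of 20 kb that tile the genome, 0 passed an adjusted p of 0.05 for sen1 or rrm3 by the exact sign-flip test with Benjamini-Hochberg adjustment. At an unadjusted p under 0.05, sen1 had 54 windows (9.22%), 1 of them among the 32 ends (3.13%), and rrm3 had 49 (8.36%), also 1 of 32. All 54 sen1 windows were higher with sen1, and the median difference over all windows was 3.53 percentage points, against 0.693 over the 32 end windows. For rrm3, 14 were higher and 35 lower. These points are not relative cover, and the share of the genome covered differed within pairs. Without and with sen1 it was 17.5% and 25.9% in the wild-type background in S phase, and 10.2% and 25.7% at 32 °C. In top2-1 it went the other way, at 10.2% and 7.0%. With cover divided by the genome share, 49 sen1 windows had an unadjusted p under 0.05 by the same test. The part of genome share in the 54 windows was not tested. The sen1 window was III left, with 11.3% of base pairs covered without and 21.6% with sen1, higher in 8 of 10 pairs (exact p = 0.0410, adjusted p = 0.414). The rrm3 window was XI right, with 7.17% without and 10.0% with rrm3, higher in 8 of 10 pairs (exact p = 0.0469, adjusted p = 0.572).

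A bTMP gene counted as consistently changed if 7 or more of its 10 pairs moved 10 or more percentage points in one direction and no more than 1 pair moved as far in the other. Here too, the points were not relative cover. With sen1, 1 gene near an end was higher (0.415%), against 0.283% of all genes, and 0 were lower, against 0.0167%. With rrm3, 2 were higher (0.830%), against 0.2%, and 2 lower (0.830%), against 0.417%. HMLALPHA2, the silent copy of the alpha2 repressor gene, was the higher gene with sen1 and one of those with rrm3. Without sen1 its cover ran from 0% to 70.0% with a median of 26.3%, and with sen1 from 15.5% to 100% with a median of 46.0%, so the groups overlapped. Its mean difference was 22.7 points ± 23.2 (SD) with sen1, higher by the required margin in 7 of 10 pairs, and 24.0 points ± 25.1 with rrm3, in 8 of 10.

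ARR1, encoding the regulator of arsenic resistance genes on XVI right, was higher with rrm3 by 19.1 points ± 25.9. Its median was 7.76% without and 15.8% with rrm3, and the largest rise was in S-phase sen1rrm3, at 98.6%. SOR1, a sorbitol dehydrogenase gene on X right, was lower with rrm3, with a median of 47.3% without (0% to 65.5%) and 22.6% with it (0% to 47.0%). MIX23 on II left had a median of 19.4% without (0% to 38.4%) and 0% with rrm3 (0% to 23.5%). For these genes too, the lists with and without rrm3 overlapped.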

How the data were processed

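Groups were taken from the labels. The deposited files are peak lists, 1 per immunoprecipitate, and the 24 inputs were not analysed here. The fifth column is the authors' score, of unstated meaning, which served only for ranking within a list. Tools named are deepTools, SAMtools, Picard and Bowtie2, per the submitters' processing notes. No source used here gives the peak caller or the build. Members, gene lists and tests were chosen with earlier results of these data known.

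Peaks were set against the RefSeq gene table of assembly R64, used for names and neighbours. Its positions lined up with the peaks: wild-type Rpb1 covered 99.4% of the base pairs of 132 ribosomal protein genes, and less when they were moved by 200 bp either way (93.2% and 94.7%). Chromosome ends were base 1 and the last annotated or peak-covered base, and 74 mitochondrial peaks were left out. Relative cover of the distance classes was tested on the log2 scale, by 100000 sign flips over 20 lists or exactly over 10 pairs. Benjamini-Hochberg adjustment was over 6 distance classes. For the windows, differences in percent cover, not in relative cover, were tested exactly over 10 pairs and adjusted over 586 windows. Named genes were the 10 most covered by each assay and every gene gained, lost or consistently changed, besides family members.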

Additional observations from a re-analysis of the deposited data

How the results depend on the processing

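Rpb1 relative cover of the ends depended on their width. In the outer 10 kb wild type had 0.0894, and in the outer 30 kb wild type had 0.278, rrm3 0.265 and sen1rrm3 0.265. The bTMP level of the ends, -0.15 on the log2 scale, became 0.0549 in the outer 10 kb, -0.13 with the upper 50% of peaks by score (permutation test, adjusted p = 0.174) and -0.0477 in closely spaced lists alone. With sen1 the difference kept its direction in all 19 alternatives and never passed the test, at -0.30 to -0.17 when 1 pair was left out. With rrm3 it ran from -0.015 to 0.12 when 1 pair was left out, turning to -0.0149 without the log sen1 pair and -0.0105 without the log top1 pair. End windows under an unadjusted p of 0.05 with sen1 rose from 1 to 3 with the upper 50% of peaks. They rose to 4 with cover divided by the list's genome share, where rrm3 had 0. Over all windows of the genome, sen1 had 54 in the main setting, 52 with the upper 50% of peaks and 49 with divided cover. For rrm3 these counts were 49, 50 and 70.

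With the upper 50% of peaks, sen1 lost 1 gene and sen1rrm3 gained 3 and lost 1, while with rrm3 5 genes were higher in bTMP and 0 lower. Within 30 kb, sen1 gained 4, rrm3 lost 1 and sen1rrm3 gained 2 and lost 1. At 80% against at most 20% cover, sen1rrm3 gained 2. At 20 points, rrm3 had 0 higher and 1 lower. Shares over all protein-coding genes are not given for these settings, so these counts have no background here. The cause of these shifts was not tested. Published chromosome lengths, up to 3355 bp longer than the last annotated or peak-covered base, and the split by spacing were chosen after seeing the data. No paired analysis by replicate number was possible because every group has 1 library, and the pairs above already share a strain background and condition.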
